A study of Homo sapiens with 9 samples.

Results

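Potassium channels are represented here by 78 autosomal genes of the 20318 in a deposited table of histone H2A over protein-coding genes. They were chosen by symbol alone, as KCN followed by letters and then digits, and 1 X-linked gene that matched, KCND1, was left out. ChIP-seq libraries were made from T47D-MTVL, a human breast cancer cell line with an integrated reporter under the promoter of mouse mammary tumour virus. Cells were kept in serum-free medium before treatment with 10 nM of the synthetic progestin R5020. The groups were H2A at 0, 30 and 60 min of R5020, HP1γ at 30 and 0 min, LSD1 at 30 and 0 min, and BPTF at 30 and 0 min, each with 1 library. H2A is a core histone, HP1γ a heterochromatin protein that also lies over transcribed genes, LSD1 a histone demethylase, and BPTF the largest subunit of the NURF nucleosome remodeller. The labels name no input library. With 1 library per antibody and time no comparison has a replicate check, no p-value was computed, and each difference is between libraries.

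Potassium channels let potassium ions pass along their gradient across the membrane, and in most cells this outward current holds the membrane at a negative voltage. The pore-forming families are gated by different signals, namely voltage, calcium or sodium ions, G proteins and ATP, or, for the leak channels with tandem pore domains, stretch, acid and lipids. Auxiliary subunits form no pore and set the gating and trafficking of a partner pore, and some channels are studied in breast tumour cells for a role in proliferation and migration. The files hold chromatin measurements alone, so which of these channels the cells express was not measured.

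The members comprised 27 voltage-gated pore genes, 8 genes of electrically silent subunits that modify voltage-gated pores, 7 genes of the KCNM, KCNN, KCNT and KCNU pores, 12 inward rectifiers, 11 2-pore leak channels and 13 auxiliary subunits. The KCNM, KCNN, KCNT and KCNU pores are called calcium- or sodium-activated here, although KCNU1, placed with them as a relative of KCNMA1, encodes a channel opened by alkaline pH and voltage. The 78 genes spanned 1.96 to 1220 kb, with a median of 41.2 kb, and 33.8% to 67.0% GC, with a median of 47.8%. There were 15 members under 10 kb, 38 of 10 to 100 kb and 25 of at least 100 kb. The H2A libraries held 141, 169 and 133 M reads at 0, 30 and 60 min, as recovered from the steps of 1 read in the low RPKM values. The depth of the HP1γ, LSD1 and BPTF libraries is unknown. All 78 members had a mean of at least 0.1 RPKM, the minimum used. Because RPKM scaled with how many transcripts a gene has in the annotation, levels were not compared between genes. There were 8 members that overlap another gene of the table, and their reads cannot be told apart on both strands. Counting standard errors cover the sampling of reads only and depend on transcript numbers from a later annotation. Coordinates are on GRCh37.

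H2A read lower at 30 min than at 0 min over most potassium channel genes, as it did over most genes of the genome. Changes are given as log2 ratios after adding 0.05 RPKM to each value, a scale that understates those of low genes. Of the 78 members 59 read lower (75.6%), 18 read higher and KCNV1 had a log2 ratio of 0, beside 71.3% lower among the 19709 genes tested. The median change of the members was -0.18, against -0.14 over all genes, and the range was -0.57 to 0.39. Past 0.5 on the log2 scale 2 members read lower, KCNK7 and KCNJ11, beside 1.99% of all genes, and 0 read higher, beside 0.345%. Relative to the median of all genes, 24 members lay higher by more than 1.96 counting standard errors, beside 31.1% of all genes, and 29 lay lower, beside 20.6%.

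**Figure D1:**
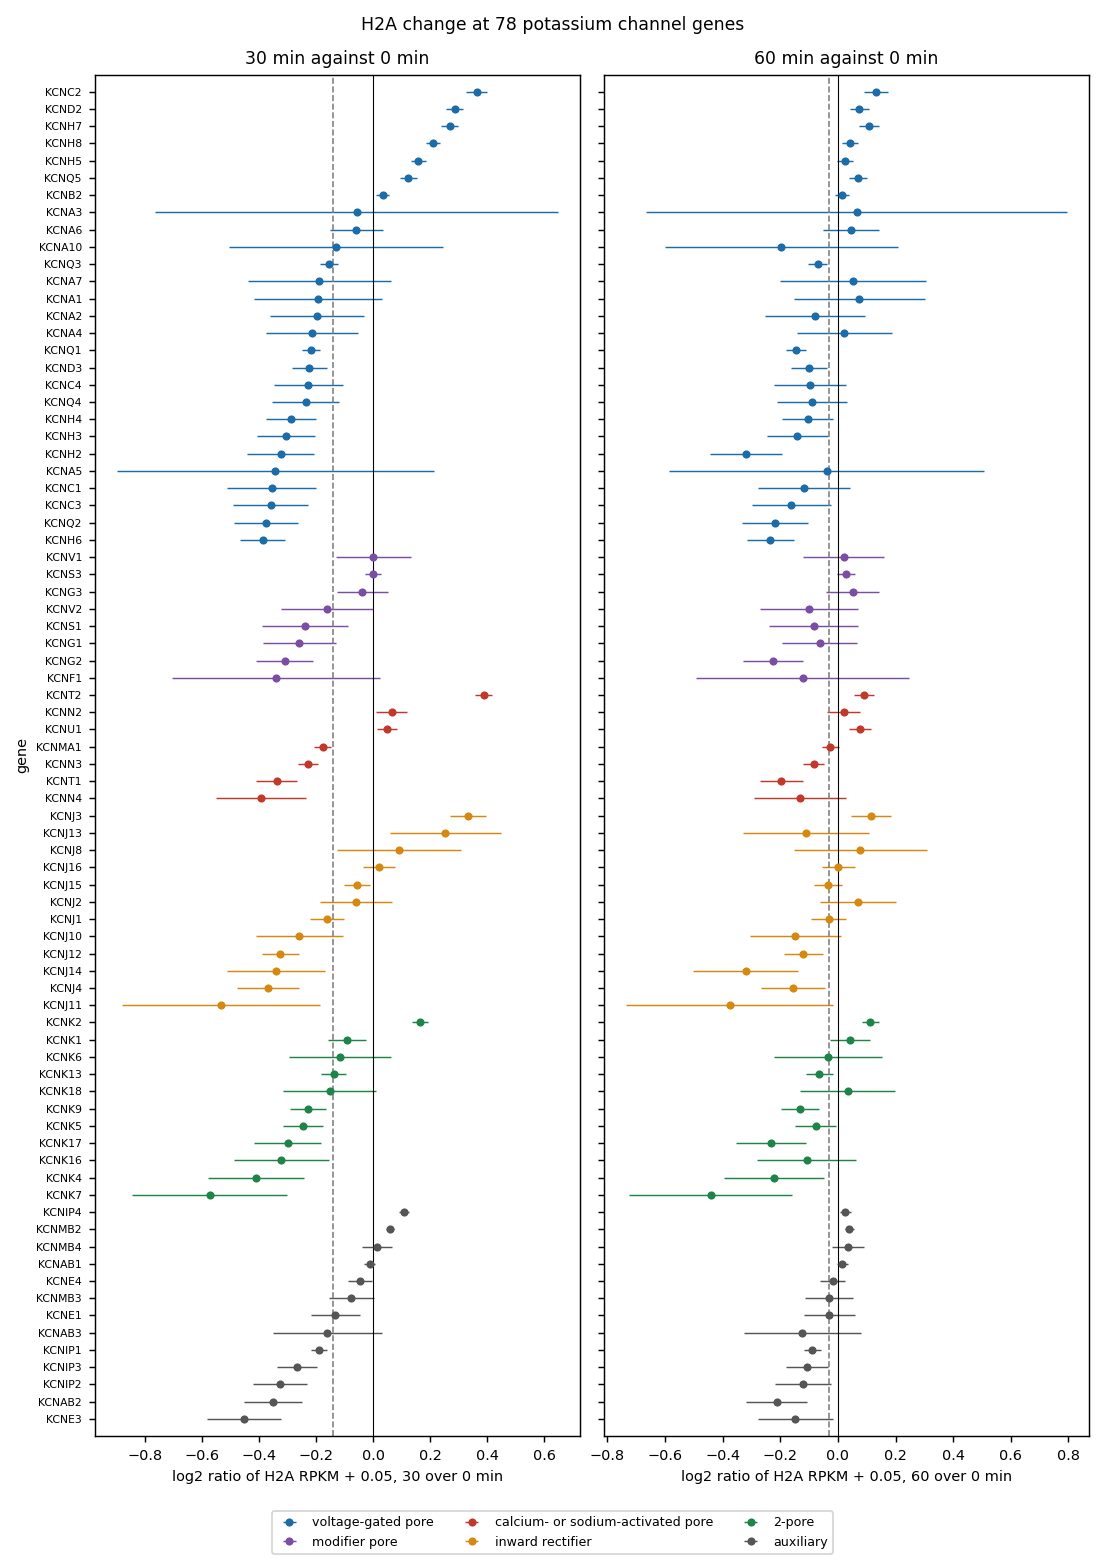
Each point is the log2 ratio of H2A RPKM plus 0.05 for 1 of the 78 genes, 30 over 0 min on the left and 60 over 0 min on the right, coloured by family; bars are 1.96 counting standard errors and the dashed line is the median of all genes. Points run from -0.57 (KCNK7) to 0.39 (KCNT2) at 30 min and from -0.44 to 0.13 at 60 min, and each family except the modifier pores has members on both sides of 0 at 30 min.

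Among the voltage-gated pores 20 of 27 read lower at 30 min, with a median of -0.20. KCNH6, KCNH2 and KCNH7 encode the ERG-type channels, of which the KCNH2 product repolarises the heart. KCNH6 (chromosome 17, 61600695 to 61626338) had 4.48, 3.41 and 3.80 RPKM at 0, 30 and 60 min, which gave a log2 change of -0.39 at 30 min (counting standard error 0.04). KCNH2 (chromosome 7, 150646503 to 150675224) had 2.35, 1.87 and 1.87 RPKM, a change of -0.32 at both later times. Both were at their highest at 0 min, and KCNH2 was as low at 60 min as at 30 min, whereas KCNH6 lay between. KCNH7 (chromosome 2, 163227917 to 163695128) had 0.632, 0.771 and 0.685 RPKM, a change of 0.27 at 30 min. It was highest at 30 min, the opposite of its relatives, and its span holds 35.0% GC against 55.9% for KCNH6 and 58.8% for KCNH2.

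KCNC2, whose fast potassium channel serves rapidly firing neurons, had 3.87, 4.99 and 4.25 RPKM at 0, 30 and 60 min, a change of 0.36 at 30 min (counting standard error 0.019). KCND2, the pore of a transient current in dendrites, had 0.631, 0.780 and 0.667 RPKM, a change of 0.29. Both peaked at 30 min and lay nearer to their 0 min level at 60 min. KCNQ1, which repolarises the heart and drives salt transport in epithelia, had 1.88, 1.61 and 1.70 RPKM, a change of -0.22. KCNA5, a channel of the atrium, had 0.139, 0.099 and 0.134 RPKM, a change of -0.34 (counting standard error 0.28), so that its difference was not detectable at this depth. KCNA6 is listed over 41.9 kb in the table but over 3.98 kb in the later annotation, and KCNA1 over 21.0 and 8.35 kb, so their values cover much sequence outside the later gene.

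The modifier subunits do not conduct alone and alter the channels they join. Of these 8 genes 7 read lower at 30 min, with a median of -0.20, and the lowest was KCNF1 at -0.34 (counting standard error 0.19). KCNS3 (chromosome 2, 18059961 to 18542882), a silent subunit that alters delayed rectifiers, had 1.28, 1.28 and 1.30 RPKM at 0, 30 and 60 min. Its level hardly moved between the libraries.

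Among the calcium- or sodium-activated pores, KCNU1 included, 4 of 7 read lower at 30 min, with a median of -0.18 and a range of -0.39 to 0.39. KCNMA1 (chromosome 10, 78637355 to 79397320) encodes the pore of the large-conductance channel opened jointly by calcium and voltage. It had 16.5, 14.6 and 16.2 RPKM at 0, 30 and 60 min, a change of -0.18 at 30 min (counting standard error 0.015) and of -0.03 at 60 min. KCNN4 (chromosome 19, 44270685 to 44285409), the intermediate-conductance channel of blood cells and epithelia, had 2.93, 2.21 and 2.67 RPKM, a change of -0.39 at 30 min. Both were lowest at 30 min and nearer to the 0 min level at 60 min. KCNT2 (chromosome 1, 196194913 to 196577541), a channel opened by intracellular sodium, had 2.25, 2.96 and 2.40 RPKM, the largest increase of any member at 0.39 (counting standard error 0.016). Its relative KCNT1 had a change of -0.34, and the spans of KCNT2 and KCNT1 hold 33.8% and 61.7% GC.

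Inward rectifiers pass potassium more easily into the cell than out. Of these 12 genes 8 read lower at 30 min, with a median of -0.11. KCNJ11 (chromosome 11, 17407406 to 17410878), the pore of the ATP-sensitive channel of insulin-secreting cells, had 2.10, 1.43 and 1.605 RPKM at 0, 30 and 60 min, a change of -0.53 (counting standard error 0.18). KCNJ3 (chromosome 2, 155554811 to 155714863), a channel opened by G proteins, had 0.581, 0.744 and 0.633 RPKM, a change of 0.33 (counting standard error 0.03). KCNJ14, a rectifier of motor neurons in rat, had 0.759, 0.588 and 0.598 RPKM, with changes of -0.34 at 30 min and -0.32 at 60 min. KCNJ11 and KCNJ14 were highest at 0 min, and KCNJ3 at 30 min. KCNJ11 is listed over 3.47 kb in the table and over 24.2 kb in the later annotation, and KCNJ14 is among the members that overlap other genes. KCNJ12 has a near-identical copy, so its -0.33 is uncertain.

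Of the 2-pore channels 10 of 11 read lower at 30 min, with a median of -0.23. KCNK7 (chromosome 11, 65360326 to 65363279), a family member not known to form a working channel alone, had 3.53, 2.36 and 2.59 RPKM at 0, 30 and 60 min, about 245, 196 and 170 reads per transcript. Its change was -0.57 (counting standard error 0.14), the lowest of the members. KCNK4, a channel opened by stretch and lipids, had 5.61, 4.21 and 4.80 RPKM, a change of -0.41. KCNK7 and KCNK4 were lowest at 30 min, as was the pH-sensitive KCNK5, with 0.585, 0.485 and 0.552 RPKM and a change of -0.25. KCNK6, a weakly rectifying leak channel, had 0.734, 0.673 and 0.716 RPKM, a change of -0.12 (counting standard error 0.09), not detectable at this depth. KCNK2 (chromosome 1, 215179118 to 215409584), another channel opened by stretch and lipids, had 5.31, 5.95 and 5.75 RPKM. It was the 2-pore gene that read higher at 30 min, at 0.16 (counting standard error 0.014).

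Of the auxiliary subunits 10 of 13 read lower at 30 min, with a median of -0.13. KCNE3 (chromosome 11, 74165886 to 74178673), the partner of KCNQ1 in the gut, had 3.42, 2.48 and 3.08 RPKM at 0, 30 and 60 min, a change of -0.45 (counting standard error 0.07). KCNMB2, a subunit that inactivates the KCNMA1 channel, had 8.13, 8.46 and 8.36 RPKM, a change of 0.06. KCNAB1, a cytoplasmic subunit of voltage-gated channels, had 10.0, 9.91 and 10.1 RPKM, a change of -0.01. KCNE3 stood well below its 0 min level at 30 min, while KCNMB2 and KCNAB1 stayed close to theirs.

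Much of the difference between members followed the base composition of the genes, as it did over the genome. The Spearman correlation of the 30 min change with GC content was -0.912 over the 78 members and -0.846 over all genes, given as a description, since all points share the same pair of libraries. Of the 21 members under 40% GC 18 read higher, with a median of 0.11, beside 0.13 for all genes of that GC. Of the 21 members of 40% to 50% GC 20 read lower, with a median of -0.16, beside -0.13. Of the 36 members of 50% GC and over 36 read lower, with a median of -0.32, beside -0.29. Long members were GC-poor, and of the 25 of at least 100 kb 14 read higher, with a median of 0.05, beside 0.01 for all genes of at least 100 kb. The median lengths were 383 kb for these members and 167 kb for those genes. Of the 38 members of 10 to 100 kb 35 read lower, with a median of -0.26, beside -0.13 for all such genes. These members were richer in GC, with a median of 52.5%, beside 44.2% for all genes of that length. With the GC trend over all genes taken off, the medians of the change were -0.022 and -0.0031.

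**Figure D2:**
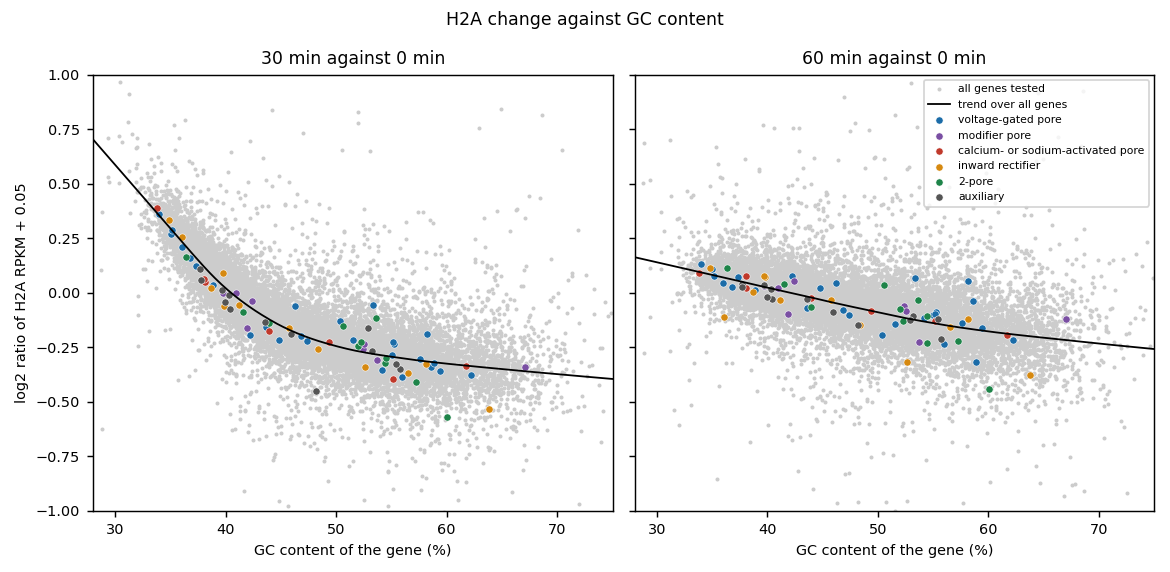
Log2 ratio of H2A RPKM plus 0.05 against the GC content of each gene, 30 over 0 min on the left and 60 over 0 min on the right, with all genes tested in grey (the axis ends at -1 and 1), the lowess trend over all genes in black and the 78 members coloured by family. Members lie along the trend from KCNT2 at 33.8% GC and 0.39 to KCNF1 at 67.0% GC and -0.34 in the 30 min panel, and the slope is shallower at 60 min.

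Relative to the GC trend of all genes, 50 members lay lower and 28 higher at 30 min (52.5% of all genes lower), the median was -0.02, the range was -0.25 to 0.22, and none of the 78 was past 0.5 either way. Beyond 1.96 counting standard errors of the trend, 18 members lay below it, beside 7.31% of all genes, and 2 lay above it, beside 5.96%. Of those below, 14 were among the 25 members of at least 100 kb, beside 651 of the 3008 genes of at least 100 kb. The residuals of these 14 ran no lower than -0.08. The 25 members had a median length of 383 kb, beside 167 kb for the 3008 genes. The part of length in these counts was not tested. KCNMB2 had -0.08, KCNMA1 -0.05 and KCNK2 -0.05, whereas KCNE3 had -0.23. The members above the trend were KCNQ1 at 0.05 and KCNA6 at 0.12. KCNK7 and KCNJ11 had residuals of -0.25 and -0.19, within their counting error, and KCNT2, KCNC2, KCND2 and KCNJ3 had 0.02, 0.01, 0.00 and 0.03. Of the members of at least 100 kb 19 of 25 lay below the trend, beside 1845 of the same 3008 genes.

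At 60 min the members lay closer to their 0 min levels, and this comparison shares the 0 min library with the last. Of 78 members 49 read lower and 29 higher (62.8% lower, beside 61.2% of all genes), with a median of -0.07, against -0.03 over all genes. None was past 0.5, beside 0.639% of all genes lower and 0.249% higher. Relative to the median of all genes, 17 members lay higher beyond counting error, beside 15.2%, and 20 lay lower, beside 13.3%. Relative to the GC trend, 41 lay lower and 37 higher (50.4% of all genes lower), 1 lay above the trend beyond counting error, beside 2.75%, and 9 lay below, beside 3.96%. The member above was KCNK2, with a change of 0.11 and a residual of 0.05. KCNK7 kept the lowest change at -0.44, KCNJ11 had -0.38, and KCNH2, with -0.32, had a residual of -0.15 that exceeded counting error, as did KCNJ14 with -0.20. The highest changes belonged to KCNC2 at 0.13, KCNJ3 at 0.11, KCNK2 at 0.11, KCNH7 at 0.11 and KCNT2 at 0.09. The Spearman correlation with GC content was -0.774 over the members.

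Genes of other ion channels gave similar values at 30 min. Of 32 measured genes of potassium pumps, cotransporters, exchangers, pacemaker channels and channel partners, from a list of 35, 25 read lower, with a median of -0.17. Of 39 genes of other ion channels 32 read lower, with a median of -0.23 and a GC median of 50.2%. The lists were not tested against each other.

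HP1γ and LSD1 peaks lay at many potassium channel genes, with a small number of long genes holding most of them. Peaks were counted where they overlapped a gene body widened by 5 kb at both ends, from lists called by the authors on 1 library each. At 30 min 27 of 78 members held an HP1γ peak (34.6%, Wilson 95% interval 25.0% to 45.7%), beside 26.6% of autosomal genes. At 0 min 32 did (41.0%, 30.8% to 52.1%), beside 31.1%. For LSD1 25 members held a peak at 30 min (32.1%, 22.7% to 43.0%), beside 25.4%, and 30 at 0 min (38.5%, 28.4% to 49.6%), beside 27.2%. Each interval covers the genome's share except that of LSD1 at 0 min, and these intervals treat genes as independent. Among members of at least 100 kb 18 and 19 of 25 held an HP1γ peak at 30 and 0 min, beside 62.3% and 62.1% of autosomal genes that long. The class is not matched for length within it, since these members had a median of 383 kb, beside 167 kb for all genes tested. The part of length in these shares was not tested. Of the same 25, 21 and 17 held an LSD1 peak, beside 62.2% and 58.2%. Of the 53 members under 100 kb 9 and 13 held an HP1γ peak at 30 and 0 min, beside 20.4% and 25.7% of autosomal genes that short. An LSD1 peak lay at 4 and 13 of these 53, beside 18.9% and 21.8%. In all, 43 members held an HP1γ or LSD1 peak, 16 held one in each of the 4 lists, and 32 had no peak in any list, BPTF included.

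**Figure D3:**
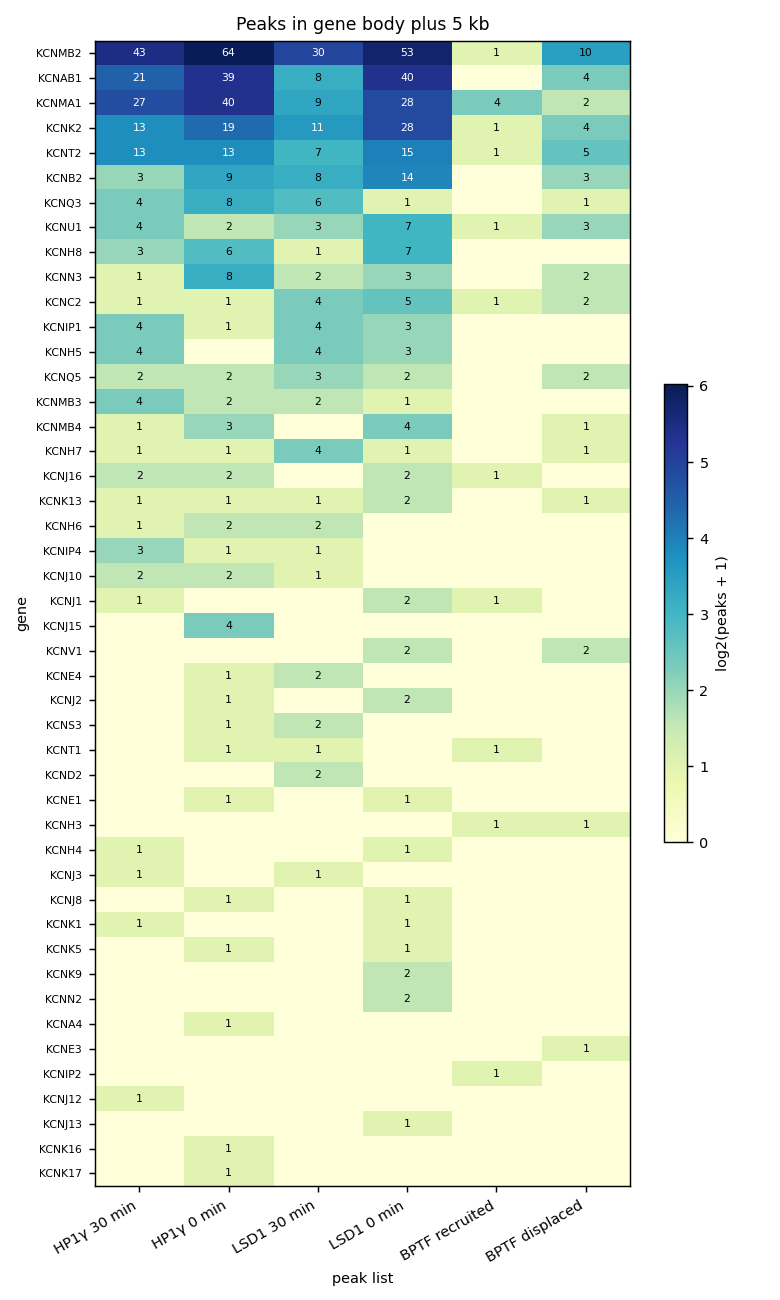
Number of peaks in the gene body plus 5 kb for the 46 members with at least 1 peak, by peak list, with colour for log2 of peaks plus 1. The top 5 genes hold 68.8% of the HP1γ and LSD1 peaks counted per gene, and most others hold fewer than 5 in any list.

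KCNMB2, KCNAB1, KCNMA1, KCNK2 and KCNT2 held 521 of 757 HP1γ and LSD1 peaks counted per gene (68.8%), a count in which a peak shared by KCNK16 and KCNK17 enters for each. KCNMB2 held 43 and 64 HP1γ peaks at 30 and 0 min and 30 and 53 LSD1 peaks. KCNAB1 held 21 and 39 HP1γ peaks and 8 and 40 LSD1 peaks. KCNMA1 held 27 and 40 HP1γ peaks and 9 and 28 LSD1 peaks. In these 3 genes both proteins had fewer peaks at 30 min, most of all LSD1 in KCNAB1. KCNK2 held 13 and 19 HP1γ peaks and 11 and 28 LSD1 peaks. KCNT2 held 13 HP1γ peaks at each time and 7 and 15 LSD1 peaks. Long members could hold few peaks, as KCNIP4, the longest at 1220 kb, held 5 in the 4 lists together, and KCNQ1, a voltage-gated gene of 404 kb, held none.

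**Figure D4:**
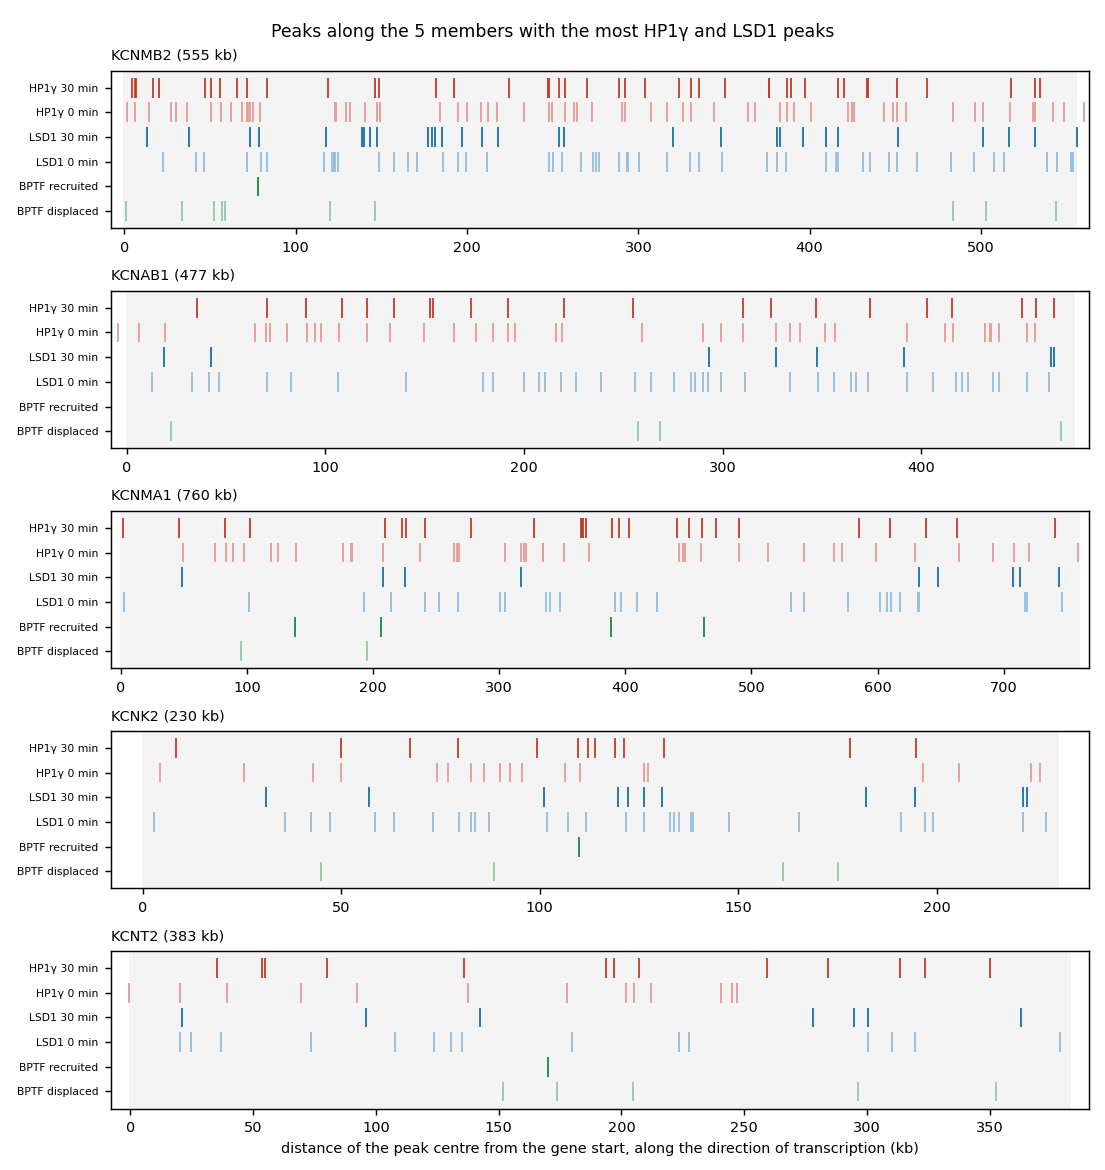
Positions of peak centres along the 5 members with the most HP1γ and LSD1 peaks, as distance from the gene start in kb along the direction of transcription, one row per peak list; the grey band is the gene body. Peaks are spread over the whole length of each gene and are sparser in the 30 min LSD1 rows than in the 0 min ones, most of all in KCNAB1 with 8 against 40.

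Summed over the members, peaks of both proteins were fewer at 30 min. There were 163 HP1γ peaks at 30 min and 239 at 0 min, a ratio of 0.682, beside 0.749 for the whole lists of 23836 and 31845. There were 119 LSD1 peaks at 30 min and 235 at 0 min, a ratio of 0.506, beside 0.586 for lists of 20495 and 34990. The LSD1 ratio moved with the lists used, since lists of equal numbers of peaks gave 119 and 148 peaks (44.6% of them at 30 min), and scores of at least 50 gave 7 and 53 (11.7% at 30 min). HP1γ peaks were more numerous at 30 min in 10 members and fewer in 21, and LSD1 peaks were more numerous in 14 and fewer in 24. The same split was not counted over all genes, and the whole lists were shorter at 30 min as well. KCNQ3, a pore of the current that damps neuronal firing, had 6 LSD1 peaks at 30 min and 1 at 0 min, although its HP1γ peaks numbered 4 and 8. Of its LSD1 peaks at 30 min, 3 have central windows in which a run of 20 bases occurs at least 3 times. KCNB2, a delayed rectifier of neurons, had 3 and 9 HP1γ peaks and 8 and 14 LSD1 peaks. KCNH8, of the ELK branch of the KCNH genes, had 3 and 6 HP1γ peaks and 1 and 7 LSD1 peaks. The members' share of each list ran from 0.581% to 0.751%. The part of sequencing depth in these peak numbers was not tested.

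Families differed in peak density. The auxiliary subunits held 24.5 and 36.1 HP1γ peaks per Mb at 30 and 0 min, with 15.2 and 32.9 per Mb for LSD1. The calcium- or sodium-activated pores held 25.5 and 36.2 HP1γ peaks per Mb, with 12.5 and 31.1 for LSD1. The 2-pore channels held 21.8 and 33.4 HP1γ peaks per Mb, with 17.4 and 49.3 for LSD1. The inward rectifiers held 10.6 and 15.1 HP1γ peaks per Mb, with 3.02 and 12.1 for LSD1. The voltage-gated pores held 4.42 and 6.63 HP1γ peaks per Mb, with 7.51 for LSD1 at each time. The modifier pores were lowest, with 0 and 1.43 HP1γ peaks per Mb and 2.855 for LSD1 at each time. Most of this rests on the 5 genes above, none of which was grouped with the inward rectifiers, voltage-gated pores or modifier pores. Over all members there were 14.3 and 20.9 HP1γ peaks per Mb at 30 and 0 min, beside 8.90 and 12.3 in autosomal genes at large, with 10.4 and 20.5 for LSD1, beside 7.64 and 13.7. These densities also rest on few genes. KCNMB2, KCNMA1 and KCNAB1, with windows of 0.565, 0.770 and 0.487 Mb out of 11.4 Mb, held 55.8% and 59.6% of the HP1γ peaks counted per gene. The 3 leading genes of each LSD1 list held 42.0% and 51.5%. A density without these genes was not computed. The other potassium handling genes described above held 9.25 and 10.4 HP1γ peaks per Mb, with 5.78 and 14.3 for LSD1, and the other ion channel genes held 6.06 and 12.1, with 4.99 and 8.38 for LSD1. By the share of genes with a peak, the other potassium handling genes had 34.4% and 34.4% for HP1γ and 37.5% and 40.6% for LSD1, and the other ion channel genes had 30.8% and 48.7%, and 35.9% and 30.8%. In 4 of these 8 values the share was above that of the potassium channel genes.

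The neighbourhoods of KCNMB2, KCNAB1, KCNK2 and KCNT2 were rich in peaks too. Not all of the 8 genes with the most peaks were so placed. Around KCNH8 the 500 kb on each side held 11 and 16 HP1γ peaks per Mb at 30 and 0 min, below the level of chromosome 3. Around KCNMB2 the 500 kb on each side held 97 and 95 HP1γ peaks per Mb at 30 and 0 min, against 76.0 and 113 in the gene and 18.9 and 24.2 on chromosome 3. For LSD1 the flanks of KCNMB2 held 82 and 93 per Mb, against 53.1 and 93.7 in the gene. The gene and its flanks thus both lay far above the chromosome. KCNAB1, on the same chromosome, held 43.1 and 80.1 HP1γ peaks per Mb, with 38 and 57 in its flanks. For LSD1 it held 16.4 and 82.2 per Mb, with 28 and 85 in its flanks and 15.4 and 30.7 on the chromosome, so at 30 min the gene was near the chromosome's level. KCNK2 held 54.1 and 79.0, with 42 and 64 in its flanks, against 8.75 at 30 min on chromosome 1. KCNMA1 held 35.1 and 52.0 HP1γ peaks per Mb, with 12 and 25 in its flanks and 12.5 and 17.2 on chromosome 10. KCNMA1 was the gene with the widest gap between body and flanks for HP1γ among the 8 with the most peaks, as a ratio. Its LSD1 density was 11.7 and 36.4 per Mb, with 16 and 22 in its flanks, so the gap was not there for LSD1 at 30 min.

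**Figure D5:**
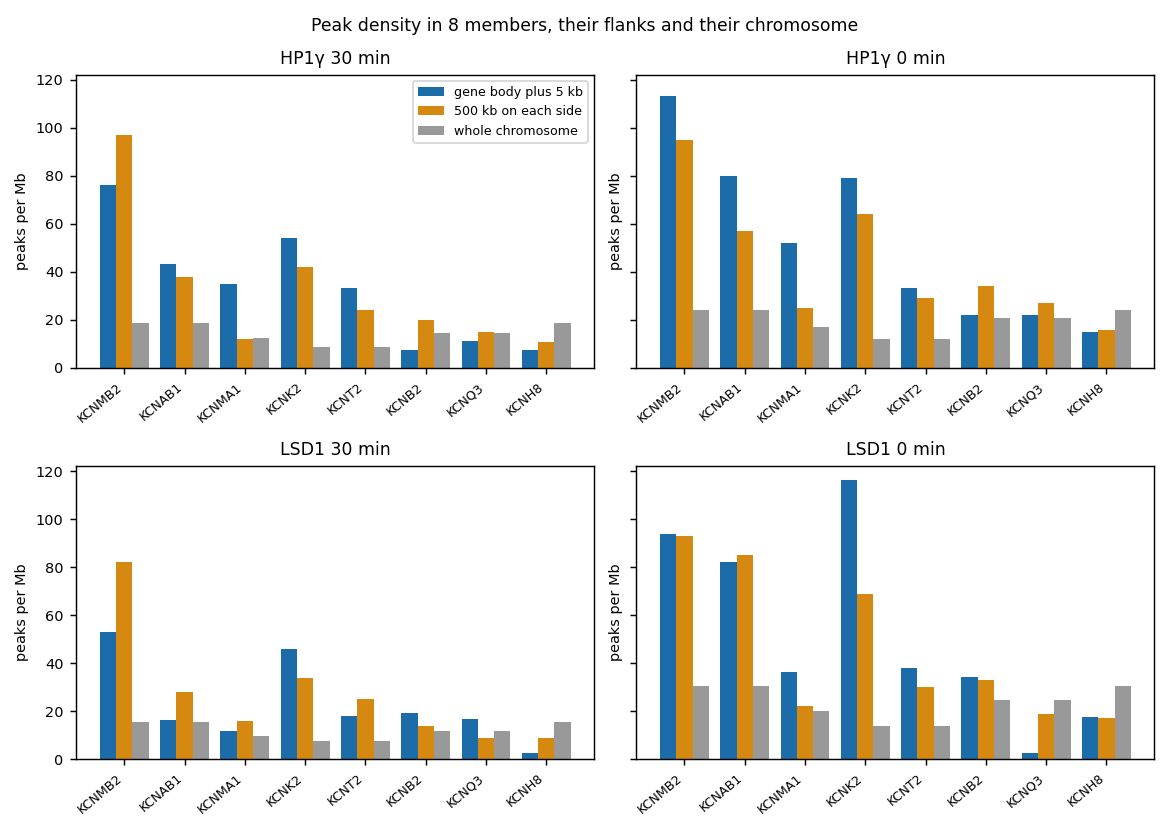
Peaks per Mb in the gene body plus 5 kb (blue), in the 500 kb on each side (orange) and on the whole chromosome (grey) for the 8 members with the most HP1γ and LSD1 peaks, one panel per list. KCNMB2 and KCNK2 have gene and flank bars far above the chromosome in every panel, KCNAB1 in every panel but LSD1 at 30 min, where its gene bar of 16.4 is near the chromosome's 15.4, while KCNB2, KCNQ3 and KCNH8 lie mostly at or below their flanks.

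For the highest-scoring peak at a member in each of the 4 lists, the central 300 bases are given on the plus strand of the GRCh37 reference. These 4 windows were picked by score and do not stand for their lists. The score is the authors' own. Capitals mark TGTTCT or its reverse complement AGAACA, the core of the progesterone receptor's element, on either strand. The HP1γ peak of KCNMB3, whose product is another subunit of the KCNMA1 channel, has the highest HP1γ score at a member at 0 min (111.84). The KCNAB1 peak is the highest of HP1γ at 30 min (85.07). The KCNS3 and KCNMB2 peaks lead LSD1 at 30 min (138.83) and at 0 min (100.04).
KCNMB3, HP1γ at 0 min, chr3:178978538-178978837: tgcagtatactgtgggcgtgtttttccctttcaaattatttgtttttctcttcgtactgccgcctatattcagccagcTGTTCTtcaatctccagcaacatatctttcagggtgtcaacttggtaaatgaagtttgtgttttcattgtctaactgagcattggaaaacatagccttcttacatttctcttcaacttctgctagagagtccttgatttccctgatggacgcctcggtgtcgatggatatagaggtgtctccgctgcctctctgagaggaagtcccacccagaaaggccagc
KCNAB1, HP1γ at 30 min, chr3:155876393-155876692: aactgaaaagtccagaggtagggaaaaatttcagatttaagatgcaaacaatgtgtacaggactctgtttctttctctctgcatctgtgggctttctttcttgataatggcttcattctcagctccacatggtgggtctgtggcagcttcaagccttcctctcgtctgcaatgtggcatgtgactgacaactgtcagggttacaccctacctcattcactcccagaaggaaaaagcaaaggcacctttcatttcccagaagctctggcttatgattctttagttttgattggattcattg
KCNS3, LSD1 at 30 min, chr2:18145119-18145418: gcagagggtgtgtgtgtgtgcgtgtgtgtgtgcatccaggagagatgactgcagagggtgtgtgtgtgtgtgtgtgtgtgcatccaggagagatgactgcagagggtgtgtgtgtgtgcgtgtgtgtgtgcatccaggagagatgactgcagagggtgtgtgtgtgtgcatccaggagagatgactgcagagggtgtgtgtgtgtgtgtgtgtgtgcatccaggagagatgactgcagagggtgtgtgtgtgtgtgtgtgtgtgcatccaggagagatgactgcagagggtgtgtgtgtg
KCNMB2, LSD1 at 0 min, chr3:178148088-178148387: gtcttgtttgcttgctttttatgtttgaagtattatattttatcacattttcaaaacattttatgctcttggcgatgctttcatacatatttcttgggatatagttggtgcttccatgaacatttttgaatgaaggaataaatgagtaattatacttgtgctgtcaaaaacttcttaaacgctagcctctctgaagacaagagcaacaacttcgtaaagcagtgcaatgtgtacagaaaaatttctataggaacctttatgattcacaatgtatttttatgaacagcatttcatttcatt
The KCNMB3 window holds 1 TGTTCT, and the others hold none. The KCNMB3 peak lies 1.01 kb upstream of the gene as listed in the table, in a part that the later annotation adds to the gene. It overlaps HP1γ peaks of 30 min with scores of 48.69 and 30.88 and an LSD1 peak of 0 min with 42.44. The KCNAB1, KCNS3 and KCNMB2 peaks lie in introns, 121, 85.3 and 158 kb from the gene start. The KCNS3 window repeats a unit in tandem, in which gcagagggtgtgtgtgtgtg occurs 6 times. No LSD1 peak lay at KCNS3 at 0 min. Windows with a run of 20 bases present at least 3 times made up 11 of the 119 LSD1 peaks of members at 30 min, beside 4.31% of that list, and 3 each of them lay in KCNMB2 and KCNQ3 and 2 in KCNS3. At 0 min there were 8 of 235, beside 1.60% of the list. For HP1γ there were 3 of 163 at 30 min, beside 3.09%, and 2 of 239 at 0 min, beside 2.14%, and for BPTF 0 of 14 recruited, beside 2.06%, and 0 of 45 displaced, beside 0.865%. How reads were placed in such repeats was not tested. The KCNMB2 window holds 31.3% GC and the KCNS3 window 55.3%.

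Most peaks at members lay inside introns. Introns held 147 of 163 and 216 of 239 HP1γ peaks at 30 and 0 min, and 109 of 119 and 213 of 235 LSD1 peaks. Within 1 kb of an annotated transcription start lay 6 and 9 HP1γ peaks and 2 and 8 LSD1 peaks. Such positions were not counted for the other peaks of the lists, so these numbers describe the members alone. The median score at members was 38.3 for HP1γ at 30 min, 37.5 at 0 min, 35.2 for LSD1 at 30 min and 37.4 at 0 min. Peaks elsewhere in the same lists had 37.3, 35.6, 36.1 and 36.3, against a lowest deposited score of 30.

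Few positions recurred between the times. Of 239 HP1γ peaks of 0 min at members 22 overlapped one of 30 min (9.21%, Wilson 95% interval 6.16% to 13.5%), beside 4.27% of the other HP1γ peaks. Of these, KCNMB2 held 11 and KCNAB1 6, KCNMA1 held 2, and KCNJ10, KCNK2 and KCNMB3 held 1 each. The KCNAB1 peak printed above was among them, at 48.81 in the 0 min list. Of 235 LSD1 peaks of 0 min 10 overlapped one of 30 min (4.26%, 2.33% to 7.65%), beside 3.71% elsewhere, with 5 in KCNMB2, 3 in KCNK2 and 1 each in KCNMA1 and KCNT2. Between the proteins, 34 of 235 LSD1 peaks overlapped an HP1γ peak at 0 min (14.5%, 10.5% to 19.5%), beside 7.03% elsewhere. At 30 min 8 of 119 did (6.72%, 3.45% to 12.7%), beside 3.54%. The shares above those elsewhere come with the high peak density of KCNMB2 and KCNAB1, and the part of that density in them was not tested.

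BPTF peaks came as positions alone, in a list of 1848 recruited and a list of 5546 displaced after R5020, with no score. Recruited peaks lay at 11 members (14.1%, Wilson 95% interval 8.06% to 23.5%), beside 5.5% of autosomal genes. Displaced peaks lay at 17 (21.8%, 14.1% to 32.2%), beside 9.55%. Among members of at least 100 kb the numbers were 6 and 13 of 25, beside 15.4% and 32.2% of autosomal genes that long. As above, these members were longer than their class, with a median of 383 kb, beside 167 kb for all genes tested. Among the 53 shorter members they were 5 and 4, beside 3.77% and 5.58% of autosomal genes under 100 kb. There were 14 recruited and 45 displaced peaks at members, 1.22 and 3.93 per Mb, beside 0.879 and 2.19 in autosomal genes. Both kinds lay at 7 members, recruited ones alone at 4 and displaced ones alone at 10.

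KCNMA1 held 4 recruited peaks, the most of any member, and 2 displaced ones. KCNT2, KCNK2, KCNMB2 and KCNU1, a channel of sperm, had 1 recruited peak each, and 5, 4, 10 and 3 displaced ones. KCNC2 had 1 and 2, and KCNH3, of the ELK branch, had 1 of each. In all of these but KCNMA1 and KCNH3 displaced peaks were the more numerous. Recruited peaks alone lay at KCNIP2, which binds the KCND2 channel and its relatives, at KCNT1, at KCNJ1, which secretes potassium in the kidney, and at KCNJ16, which joins other rectifiers, with 1 each. Displaced peaks alone lay at KCNAB1 (4), KCNB2 (3), KCNN3, a calcium-activated channel of small conductance (2), KCNQ5, of the same current as KCNQ3 (2), and KCNV1, a silent subunit (2). KCNE3, KCNMB4, a neuronal subunit of the KCNMA1 channel, KCNK13, KCNH7 and KCNQ3 had 1 each. The voltage-gated pores held 2 recruited and 10 displaced peaks, and the auxiliary subunits 2 and 16.

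Recruited peaks at members lay in exons in 6 of 14 cases and displaced ones in 3 of 45. Within 1 kb of an annotated start lay 3 of the 14 and 3 of the 45. Positions of the other BPTF peaks were not counted. The recruited ones were in KCNMA1, 0.174 kb from an internal start, in KCNT1, 0.272 kb from one, and in KCNIP2, 0.476 kb from one. The central 300 bases of the KCNMA1 and KCNIP2 sites are given because they lie beside starts, and those of a displaced site in an intron of KCNK2 because they hold 3 matches to TGTTCT. Capitals mark TGTTCT and AGAACA as before.
KCNMA1, BPTF recruited, chr10:79258753-79259052: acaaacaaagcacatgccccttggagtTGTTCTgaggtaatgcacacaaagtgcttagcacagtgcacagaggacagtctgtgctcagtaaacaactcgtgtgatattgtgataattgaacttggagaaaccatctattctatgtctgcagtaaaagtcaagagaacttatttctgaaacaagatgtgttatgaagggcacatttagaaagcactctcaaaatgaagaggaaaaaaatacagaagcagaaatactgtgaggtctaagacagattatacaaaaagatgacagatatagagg
KCNIP2, BPTF recruited, chr10:103590522-103590821: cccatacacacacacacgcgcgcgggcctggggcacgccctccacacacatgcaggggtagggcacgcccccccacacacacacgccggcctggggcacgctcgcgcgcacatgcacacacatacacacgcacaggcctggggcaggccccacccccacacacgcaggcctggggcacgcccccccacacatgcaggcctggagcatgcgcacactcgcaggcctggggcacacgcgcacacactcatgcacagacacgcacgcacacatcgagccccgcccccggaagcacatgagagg
KCNK2, BPTF displaced, chr1:215340245-215340544: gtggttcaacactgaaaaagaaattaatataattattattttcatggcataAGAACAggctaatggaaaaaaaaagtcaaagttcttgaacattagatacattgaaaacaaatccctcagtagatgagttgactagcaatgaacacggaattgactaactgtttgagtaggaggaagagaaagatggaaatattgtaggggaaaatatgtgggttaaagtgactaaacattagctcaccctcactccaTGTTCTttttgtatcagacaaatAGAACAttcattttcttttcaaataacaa
The KCNMA1 site holds 1 match and 38.0% GC, and the KCNIP2 site holds none and 70.3% GC. The KCNMA1 site overlaps an HP1γ peak of 0 min, and the KCNIP2 site overlaps no HP1γ or LSD1 peak. Over the members 6 of 45 displaced peaks overlapped an HP1γ peak of 0 min (13.3%, 6.26% to 26.2%), beside 4.05% of other displaced peaks, and 3 overlapped an LSD1 peak of 0 min (6.67%, 2.29% to 17.9%), beside 5.36%. A displaced peak in KCNN3 overlapped both. Of the recruited peaks 2 of 14 overlapped an HP1γ peak of 30 min, in KCNK2 and KCNJ16, beside 2.78% of other recruited peaks, and 2 of 14 one of 0 min, in KCNK2 and KCNMA1, beside 4.96%. None of the 14 overlapped an LSD1 peak of 30 or 0 min, beside 1.91% and 3.49%, and 0 of 14 allows a share of up to 21.5%.

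The TGTTCT core was about as common at members as in the lists at large. It or its complement lay in the central 300 bases of 3 of 14 recruited peaks (21.4%), beside 27.8% of all recruited peaks, and of 13 of 45 displaced ones (28.9%), beside 25.8%. For HP1γ the members' shares were 23.3% and 23.0% at 30 and 0 min, beside 24.4% and 23.7% of the lists. For LSD1 they were 25.2% and 21.3%, beside 23.8% and 25.9%. CACGTG, a palindrome bound by helix-loop-helix factors and unrelated to the receptor, lay in 0 and 3 HP1γ windows of members at 30 and 0 min (0% and 1.26%), beside 2.66% and 2.96% of the lists. It lay in 1 and 4 LSD1 windows (0.840% and 1.70%), beside 2.52% and 2.08%, and in 0 recruited and 1 displaced BPTF window, beside 3.63% and 2.11%. A match of 6 letters is a description of the window and not a binding site.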

How the data were processed

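Titles gave the antibody and time of each of the 9 ChIP-seq libraries, which made 9 groups of 1. Per the submitters' processing notes, Bowtie 1.0.0, HOMER 4.7.2 and build hg19 (GRCh37) were used. The deposited H2A table gives RPKM over GENCODE version 18 genes, counted on both strands by HOMER, per the file headers. Each deposited HP1γ or LSD1 peak has a score, never under 30, and a name of the kind MACS writes. Caller version, control and score definition are not given in the sources used here. In the deposited BPTF lists a peak has only a position, read as a BED interval, and neither caller nor criterion is known.

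H2A changes were log2 ratios of RPKM plus 0.05 over the 19709 genes with a mean of at least 0.1 RPKM, not centred. Reads were recovered from RPKM steps, with 100% of 34, 97.3% of 37 and 94.3% of 35 low values whole within 0.06 reads at 0, 30 and 60 min, and divided by the transcript number in GENCODE version 44 lifted to GRCh37. Summed values implied 4.18 to 4.26 reads in genes per library read. The GC trend was a lowess fit with a span of 0.3 (statsmodels 0.14.6, Python 3.11.15). Peaks overlapped by at least 1 bp, and a gene's window was its body plus 5 kb. Sequences were read from GRCh37 with pysam 0.24.0. The steps were tested on simulated data. Named genes were the 5 largest changes each way at each time, the 8 with the most HP1γ and LSD1 peaks, the holders of the 3 highest scores per list, those with a BPTF peak or a peak of 0 min that recurred at 30 min, and a fixed list of 13 channels of interest, of which KCNH1 was not among the members. KCNF1, KCNIP4, KCNJ12, KCNA1 and KCNA6 were named after their values were seen. The members and lists were chosen with earlier results of these data known. Alternatives covered the pseudocount, the minimum, centring, GC, the score, equal list lengths and the window. The sequence of 1 high-scoring peak is not reported here.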

Additional observations from a re-analysis of the deposited data

How the results depend on the processing

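No paired analysis was possible because each antibody and time has 1 library, and for the same reason no library could be left out. Of the 122 values recomputed over the members under the alternatives, 95 stayed close to those reported. At 30 min the members past 0.5 came to 0 with a pseudocount of 0.5 RPKM, with the GC trend taken off and with members of at least 10 kb. On centring, the count stayed but its genes changed. KCNK7 and KCNJ11 were then no longer past 0.5, and KCNT2 and KCNC2 were past it on the higher side. Centred on the median of all genes, the median was -0.040 with 57.7% lower, and with the GC trend off it was -0.023 with 64.1% lower. At 60 min the median with the GC trend off was -0.0030. With scores of at least 50, HP1γ peaks lay at 8 and 11 members at 30 and 0 min (24 and 38 peaks) and LSD1 peaks at 7 and 12 (7 and 53 peaks, 11.7% of them at 30 min). With lists cut to equal numbers of peaks, 46.2% of HP1γ peaks lay at 30 min, and LSD1 had 148 peaks at 0 min and 44.6% at 30 min. Without KCNMB2, KCNAB1 and KCNMA1, 72 and 96 HP1γ peaks and 72 and 114 LSD1 peaks (38.7% at 30 min) were left, and 9 recruited and 29 displaced BPTF peaks. The limit of 10 kb and the removal of these 3 genes were chosen after seeing the data. Of 518 values for 38 named genes 97 moved beyond counting error, 51 of them when the GC trend was taken off, 37 on centring and 9 with a pseudocount of 0.5 RPKM. Depth limits the short members most, and for peaks it is unknown.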
